A study of Mus musculus with 8 samples.

Results

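The 10 genes described here handle cholesterol once a cell has made it or taken it up. They are the liver X receptors Nr1h2 and Nr1h3, the exporters Abca1 and Abcg1, the lysosomal proteins Npc1, Npc2 and Lipa, the esterifying enzyme Soat1 and the sterol carriers Stard3 and Stard4. They were chosen by function and matched by gene identifier in a count table of 27179 genes. All 10 were in the table and all 10 passed the filter on low counts, which left 13364 genes tested.

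RNA was sequenced from mouse acute myeloid leukaemia cells carrying the MLL-AF9 fusion, in which the histone methyltransferase MLL is joined to AF9. The cells came from 1 terminally ill mouse, were grown with the cytokines SCF, IL-3 and IL-6, and expressed green fluorescent protein (GFP; driven by ubiquitin, as labelled) and luciferase (driven by the β-actin promoter). They were injected into unconditioned male mice aged 8 to 10 weeks, which therefore kept their own blood cells. Of the libraries, 3 came from mice on a diet lacking BCAA (the essential amino acids with branched side chains) and 5 from mice on a standard amino acid diet. Mice on either diet were treated with 5+3, a course of cytarabine (100 mg/kg, 5 days) and doxorubicin (3 mg/kg, 3 days), and living GFP-positive cells were sorted from crushed bones when the response was greatest. The labels give the genotype as WT in both groups and call the libraries biological replicates. The sample names say BCAA, and the design text of the series identifies this as the BCAA-free diet.

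Cholesterol reaches a cell largely inside lipoproteins, whose esters are split by Lipa in the lysosome before Npc2 and Npc1 pass the free sterol out. Excess sterol is stored as ester by Soat1 or is exported by Abca1 and Abcg1, and oxidised sterols bind the liver X receptors (LXR), which then switch on the exporter genes. When sterol is scarce the opposite arm, led by the transcription factor SREBP2, raises synthesis and uptake, and Stard4, a soluble sterol carrier, is known as a target of that arm. In myeloid tissue these genes are best known from macrophages, which take in the sterol of cells they engulf.

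The comparison asked how leukaemia cells from mice on the BCAA-free diet differed from those on the standard diet after chemotherapy. Stard4 fell 1.89-fold on the BCAA-free diet and was the 1 member of 10 that passed the test. Abca1 had the widest difference, 4.54-fold higher on the BCAA-free diet, but its libraries were widely spread and it did not pass. Both receptors, Abcg1, Soat1, Lipa, Npc1 and Stard3 differed by less than the spread between libraries. Npc2 also did not pass.

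Read against the whole table, 1 called member in 10 stands beside 0.756% of tested genes called in either direction, and 0.539% called lower, by edgeR's quasi-likelihood test at an adjusted p under 0.05. At an unadjusted p under 0.05 there were 3 members (Abca1, Npc2 and Stard4) of 10, against 13.5% of tested genes. The diets' libraries did not overlap for 1 member of 10, against 8.84% of tested genes. The median log2 fold change of the members was -0.02, and that of all tested genes 0.02.

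**Figure D1:**
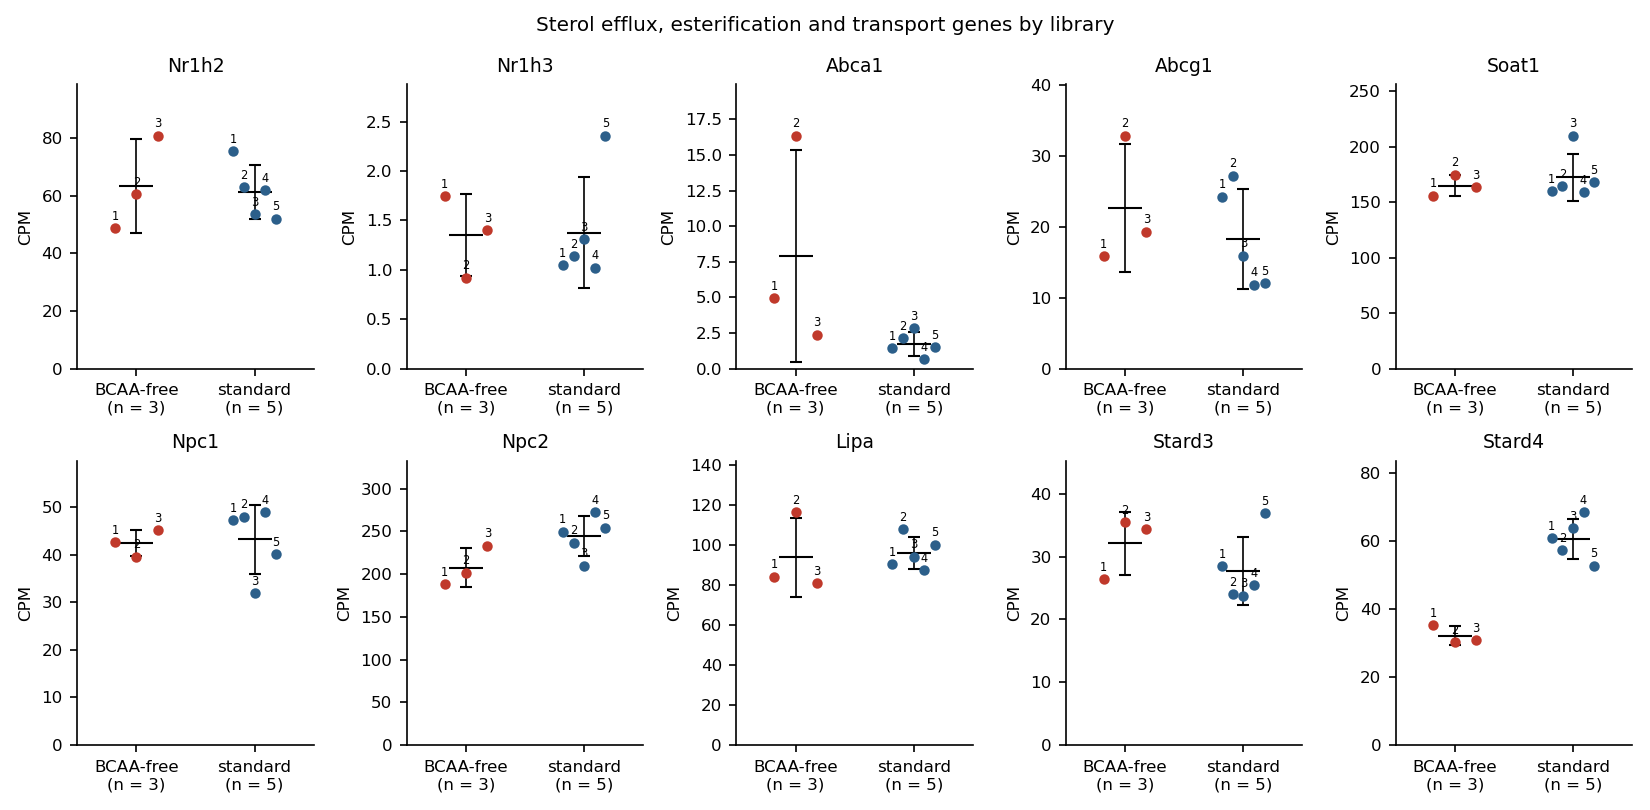
Each panel gives a gene in CPM (counts scaled by library size to the usual CPM unit; linear axis from 0), with the 3 BCAA-free libraries left of the 5 standard-diet libraries; points are libraries with their replicate number, and the bars are the mean and SD. Stard4 lies between 30.2 and 35.3 CPM on the BCAA-free diet, below every standard-diet library (52.8 to 68.5 CPM), while Abca1 reaches 16.4 CPM in BCAA-free replicate 2.

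The library totals were 14851240 to 30306697 counts on the BCAA-free diet and 16588662 to 38966911 on the standard diet. Libraries of 1 diet differed from each other far beyond sampling noise, with a chi-square per degree of freedom of 20.3 to 66.0, so none was treated as a copy of another. Markers of the leukaemia were present in all 8, the homeobox gene Hoxa9 at 140 to 189 CPM on the BCAA-free diet and 162 to 200 CPM on the standard diet. The 10 leukaemia and myeloid progenitor markers summed to 8071 to 9157 CPM on the BCAA-free diet and 9989 to 12300 CPM on the standard diet, with no overlap. None of the 10 passed, and 7 had a lower mean on the BCAA-free diet. Most of the sum was Mpo, the myeloperoxidase of granules, at 5814 to 6967 CPM on the BCAA-free diet and 7623 to 10000 CPM on the standard diet (edgeR adjusted p = 0.0605). Pbx3, a homeobox partner, was at 65.7 to 67.9 CPM on the BCAA-free diet and 71.2 to 93.8 CPM on the standard diet (edgeR adjusted p = 0.257). CPM throughout use library sizes scaled by the trimmed mean of M values (TMM).

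The sterol carriers were the group in which a member changed. Stard4 moves cholesterol between membranes through the cytosol. It had 35.3, 30.2 and 30.8 CPM in the BCAA-free libraries, replicates 1 to 3. In the standard-diet libraries, replicates 1 to 5, it had 60.8, 57.3, 63.8, 68.5 and 52.8 CPM. Every BCAA-free library was thus below every standard-diet library, and the spread within each diet was small. The means were 32.1 ± 2.81 CPM (SD, n = 3) on the BCAA-free diet and 60.6 ± 6.01 CPM (SD, n = 5) on the standard diet. The log2 fold change was -0.92 (SE 0.13, 95% interval -1.19 to -0.65, edgeR adjusted p = 0.00288). The call held whichever single library was left out (adjusted p 0.00527 to 0.0281).

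Stard4 (gene 170459) lies on chromosome 18 between 33199138 and 33213862 of the GRCm38 assembly. Npc1 (gene 18145) is on the same chromosome at 12189694 to 12236506. The other members lie on chromosomes 7 (Nr1h2, gene 22260), 2 (Nr1h3, 22259), 4 (Abca1, 11303), 17 (Abcg1, 11307), 12 (Npc2, 67963), 19 (Lipa, 16889), 1 (Soat1, 20652) and 11 (Stard3, 59045). The genes whose pattern over the 8 libraries came closest to that of Stard4 were sought among 10069 others of at least 5 CPM. Likeness was the mean absolute difference between the log2 CPM of the genes, each centred on its own mean. Cyp51, the sterol 14-demethylase of cholesterol synthesis, was closest, at a mean difference of 0.055. The others were Megf9, a transmembrane protein (0.125), C3, the complement component (0.137), Msmo1, a sterol C4 demethylase (0.140), and Fdps, the farnesyl diphosphate synthase (0.142). All 5 were lower on the BCAA-free diet in edgeR, with log2 fold changes of -0.97 for Cyp51, -0.72 for Megf9, -0.72 for C3, -1.08 for Msmo1 and -1.0 for Fdps. Since the measure compares the sizes of changes as well as their order, a gene with the same change as Stard4 is favoured by construction.

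Stard3, which is anchored in the late endosome membrane and carries the same type of sterol-binding domain, did not pass the test. It had 26.4, 35.5 and 34.4 CPM in the BCAA-free libraries. It had 28.4, 24.1, 23.8, 25.5 and 37.0 CPM in the standard-diet libraries, of which replicate 5 was above all BCAA-free libraries. The log2 fold change was 0.21 (SE 0.17, 95% interval -0.14 to 0.57, edgeR adjusted p = 0.618). Within a library the ratio of Stard4 to Stard3 counts does not depend on scaling. Its log2 averaged 0.01 ± 0.36 (SD, n = 3) on the BCAA-free diet and 1.14 ± 0.38 (SD, n = 5) on the standard diet, a difference of -1.13 with no overlap. The two-sided exact permutation p was 0.0357, the smallest that 56 splits allow, and 0.0536 after adjustment over the 3 ratios tested.

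Neither exporter passed the test. Abca1 loads cholesterol onto lipid-poor apolipoproteins at the cell surface. It had 4.96, 16.4 and 2.39 CPM in the BCAA-free libraries. It had 1.43, 2.16, 2.86, 0.660 and 1.51 CPM in the standard-diet libraries. BCAA-free replicates 1 and 2 were above all standard-diet libraries, while replicate 3 lay below standard-diet replicate 3. Behind these values were 11 to 302 reads per library, so Abca1 was a weakly expressed gene in all but BCAA-free replicate 2. The means were 7.90 ± 7.44 CPM (SD, n = 3) on the BCAA-free diet and 1.72 ± 0.827 CPM (SD, n = 5) on the standard diet, and the log2 fold change was 2.18 (SE 0.54, unadjusted p = 0.00118, edgeR adjusted p = 0.0837).

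The result for Abca1 depended on the test and on single libraries. DESeq2, which called 2.85% of the genes it tested in either direction, called Abca1 higher (adjusted p = 0.00366). In edgeR it also passed without BCAA-free replicate 3 (log2 fold change 2.62, adjusted p = 0.0102). Without BCAA-free replicate 2, its highest library, the log2 fold change was 1.07 and the adjusted p 0.468. Limma-voom gave 1.63 and an adjusted p of 0.306. The direction was upward in all 18 alternatives that gave a value.

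**Figure D2:**
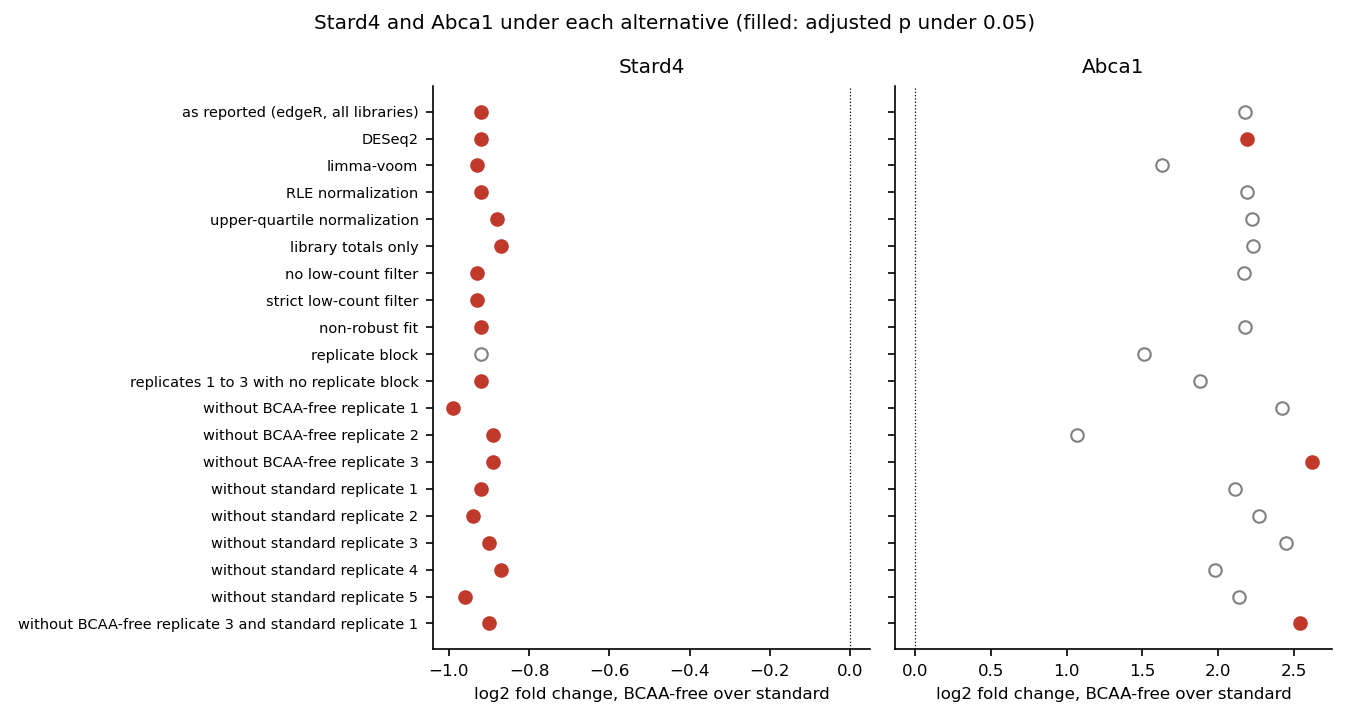
Log2 fold change, BCAA-free over standard diet, of Stard4 (left panel) and Abca1 (right panel) as reported and under each alternative; filled points had an adjusted p under 0.05. Stard4 stays between -0.99 and -0.87 and is filled in all but 1 of them, while Abca1 runs from 1.07 without BCAA-free replicate 2 to 2.62 without BCAA-free replicate 3.

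Abca1 is abundant in macrophages, and markers of several other cell types differed between the diets, as did the summed leukaemia markers given above. In these sorted but bulk samples, more cells of another type and more RNA per cell cannot be told apart. Of 13 macrophage markers, 11 had a higher mean on the BCAA-free diet, and Cd163, a scavenger receptor, passed the test (12.3 ± 4.75 CPM, SD, n = 3, against 3.86 ± 1.95 CPM, SD, n = 5, on the standard diet; edgeR adjusted p = 0.0450). The exceptions were Adgre1 and Vcam1, both above 50 CPM in every library and both lower in mean on the BCAA-free diet, and with them the 13 summed to 238 to 337 CPM on the BCAA-free diet and 310 to 407 CPM on the standard diet. The other 11, set apart after their values were seen, summed to 80.3, 79.3 and 41.3 CPM in the BCAA-free libraries and 21.4 to 37.3 CPM in the standard-diet libraries. No macrophage marker was at 0 in all libraries.

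Among B and plasma cell markers 3 of 6 tested rose, Cd79a and Cd79b among them, beside 0.217% of all tested genes called higher, and none of the 9 T and NK cell or 9 mature neutrophil markers passed. Cd79b, a chain of the B cell receptor, had 17.97, 31.0 and 18.1 CPM in the BCAA-free libraries and 6.27 to 10.7 CPM in the standard-diet libraries (edgeR adjusted p = 0.00852). The 9 T and NK cell markers summed to 15.9, 44.2 and 12.4 CPM in the BCAA-free libraries and 9.13 to 19.2 CPM in the standard-diet libraries. The 7 B and plasma cell markers summed to 279, 309 and 148 CPM in the BCAA-free libraries and 105 to 396 CPM in the standard-diet libraries. The 9 mature neutrophil markers summed to 2720, 6254 and 1562 CPM in the BCAA-free libraries and 775 to 6377 CPM in the standard-diet libraries. Among stromal and endothelial markers Cxcl12, a chemokine of marrow stroma, rose, with 39.4, 18.4 and 13.5 CPM in the BCAA-free libraries and 2.04 to 8.16 CPM in the standard-diet libraries (log2 fold change 2.18, edgeR adjusted p = 0.0374). That list of 7 summed to 42.6 to 63.5 CPM in the BCAA-free libraries and 25.7 to 46.1 CPM in the standard-diet libraries. The 6 erythroid markers all had a higher mean on the BCAA-free diet and none passed. They summed to 16.03, 4.23 and 46.2 CPM in the BCAA-free libraries and 3.41 to 14.5 CPM in the standard-diet libraries. No monocyte or megakaryocyte marker passed. The library highest for Abca1, BCAA-free replicate 2, was also the highest for the sum of T and NK cell markers. The highest library was BCAA-free replicate 1 for the 11 macrophage markers and the stromal list, BCAA-free replicate 3 for the erythroid list, and standard-diet replicate 3 for the B and plasma cell and neutrophil lists. The cells had been sorted on GFP, which marks the injected cells. The part of other cells in the Abca1 values was not tested.

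**Figure D3:**
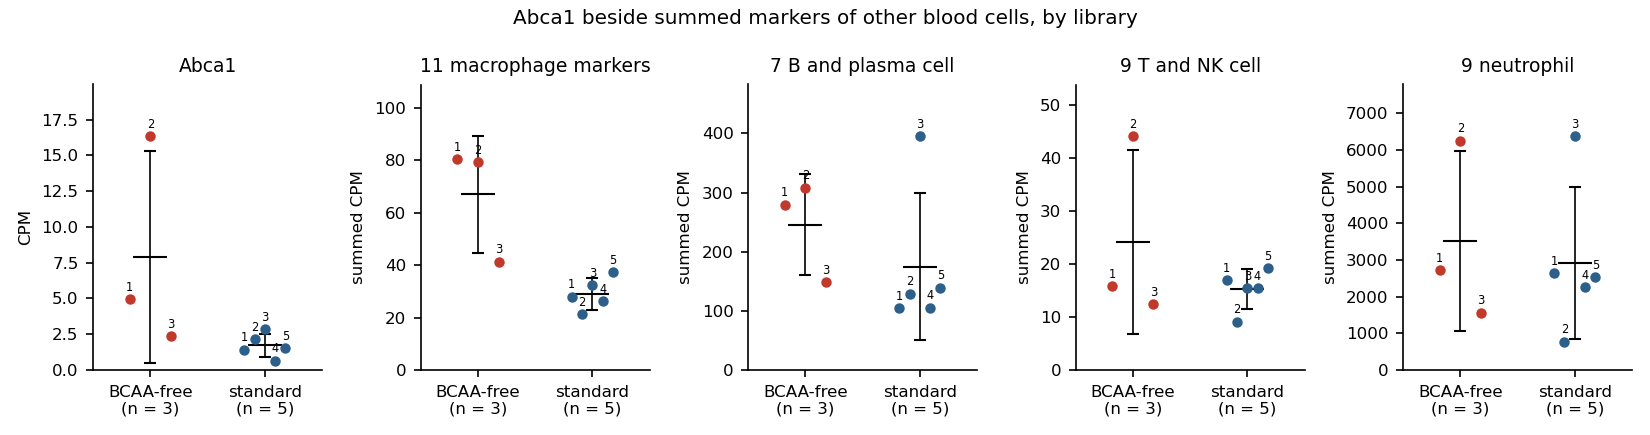
Abca1 (CPM) beside the summed CPM of 11 macrophage, 7 B and plasma cell, 9 T and NK cell and 9 mature neutrophil markers, with BCAA-free libraries left of standard-diet libraries and replicate numbers beside the points; bars are the mean and SD. BCAA-free replicate 2 is highest for Abca1 (16.4 CPM) and the T and NK cell markers (44.2 CPM), BCAA-free replicate 1 for the macrophage markers (80.3 CPM), and standard-diet replicate 3 for the B and plasma cell (396 CPM) and neutrophil markers (6377 CPM); the 11 macrophage markers, set apart after their values were seen, leave out Adgre1 and Vcam1, with which all 13 sum to 238 to 337 CPM on the BCAA-free diet and 310 to 407 CPM on the standard diet.

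The stretch of the Abca1 promoter just before its start site is shown because LXR is known to act on this gene through a direct repeat there. It covers chr4:53159896-53160055 of GRCm38 (RefSeq, GRCm38.p6), minus strand, from 160 bases to 1 base before the RefSeq start site. Capitals mark an E-box (CACGTG, first base 147 before the start) and a DR4, first base 67 before the start. A DR4 is a direct repeat of the receptor site AGGTCA with 4 bases between the copies (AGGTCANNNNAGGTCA). This DR4 is on the opposite strand and departs from the 12 bases of the copies at no more than 3 positions.
Abca1 promoter: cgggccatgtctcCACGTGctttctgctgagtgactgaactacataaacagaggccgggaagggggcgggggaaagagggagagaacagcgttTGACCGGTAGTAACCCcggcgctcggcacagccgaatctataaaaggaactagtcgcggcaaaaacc

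RefSeq windows of 300 bases (250 before to 50 after the start) were searched for 7 of the 10 members, in 8 windows. Abcg1, Npc1 and Stard4 were not searched, so nothing here covers their promoters. Both strands were searched. Of these windows only that of Abca1 held the E-box or such a DR4, and none held AGGTCA itself, the exact DR4 or the sterol regulatory element core CACCCCAC. Of all 32851 windows, 7.15% held the E-box and 18.8% a DR4 with up to 3 departures in all and up to 2 in a copy, a looseness chosen after the Abca1 sequence was seen. The share was 1.75% for a DR4 with up to 1 departure in each copy and 0.0152% for the exact DR4. It was 16.3% for AGGTCA, which the exact DR4 contains, and 2.87% for the sterol element core. A match to these letters is a description of the sequence alone.

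Abcg1, which passes cholesterol on to mature lipoprotein particles, had 15.8, 32.9 and 19.3 CPM in the BCAA-free libraries. It had 24.3, 27.2, 15.96, 11.8 and 12.1 CPM in the standard-diet libraries. The groups overlapped widely, with standard-diet replicates 1 and 2 above 2 of the 3 BCAA-free libraries. BCAA-free replicate 2 was the highest of all 8 for Abcg1, as it was for Abca1. The log2 fold change was 0.31 (SE 0.31, 95% interval -0.36 to 0.97, edgeR adjusted p = 0.714), and it was -0.06 without BCAA-free replicate 2. A 2-fold difference in Abcg1 is just outside that interval on the upward side.

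Of the receptors, Nr1h2 encodes LXR-beta, the form found in most tissues. It had 48.8, 60.5 and 80.8 CPM in the BCAA-free libraries. It had 75.5, 62.8, 53.5, 61.9 and 52.0 CPM in the standard-diet libraries. The BCAA-free libraries held both the lowest and the highest value of the 8, and the log2 fold change was 0.05 (SE 0.16, 95% interval -0.28 to 0.39, edgeR adjusted p = 0.922).

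Nr1h3 encodes LXR-alpha, the form known from liver and macrophages, and was near the limit of detection. It had 1.74, 0.921 and 1.40 CPM in the BCAA-free libraries. It had 1.04, 1.14, 1.31, 1.02 and 2.36 CPM in the standard-diet libraries. These values rest on 17 to 44 reads per library, and the 95% interval of the log2 fold change of -0.02 ran from -1.21 to 1.17 (edgeR adjusted p = 0.994). A change of up to about that size in either direction is thus compatible with these values. The interval is unadjusted, so a larger change could also miss the threshold. In the GENCODE annotation 1.35% of its exon bases are shared with Gm13783 on the same strand.

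In the lysosome, Lipa, the acid lipase that frees cholesterol from its esters, had 84.3, 117 and 81.0 CPM in the BCAA-free libraries. It had 90.7, 108, 94.4, 87.5 and 100 CPM in the standard-diet libraries. The standard-diet values all lay inside the range of the BCAA-free values (log2 fold change -0.03, SE 0.13, 95% interval -0.30 to 0.24, edgeR adjusted p = 0.938).

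Npc2, the soluble protein that takes cholesterol from the lysosomal lumen, had 188, 202 and 233 CPM in the BCAA-free libraries. It had 250, 237, 210, 273 and 254 CPM in the standard-diet libraries. Only BCAA-free replicate 3 reached into the standard-diet range, above standard-diet replicate 3. The log2 fold change was -0.24 (SE 0.11, unadjusted p = 0.0495, edgeR adjusted p = 0.370), so the difference did not pass over all genes. It was negative in all 19 alternatives, between -0.33 and -0.16, and passed in none.

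Npc1, the membrane protein that receives the sterol from Npc2, had 42.7, 39.6 and 45.1 CPM in the BCAA-free libraries. It had 47.2, 48.0, 32.0, 49.0 and 40.2 CPM in the standard-diet libraries. The BCAA-free values lay within the standard-diet range (log2 fold change -0.02, SE 0.15, 95% interval -0.34 to 0.29, edgeR adjusted p = 0.962). In the GENCODE annotation of GRCm38 4.52% of the exon bases of Npc1 overlap Rmc1 on the opposite strand. Reads from that overlap cannot be assigned, since no source used here gives the strand setting of the counting. A smaller overlap of 0.795% is with Gm15956, also on the opposite strand.

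Soat1, the enzyme of the endoplasmic reticulum that esterifies cholesterol, had 156, 175 and 163 CPM in the BCAA-free libraries. It had 160, 164, 210, 159 and 168 CPM in the standard-diet libraries. Apart from standard-diet replicate 3 the libraries of both diets lay in 1 narrow range, and the log2 fold change was -0.07 (SE 0.11, 95% interval -0.30 to 0.17, edgeR adjusted p = 0.845). Nceh1, which splits cholesterol esters outside the lysosome, had 18.9 ± 1.15 CPM (SD, n = 3) on the BCAA-free diet and 23.4 ± 1.94 CPM (SD, n = 5) on the standard diet (edgeR adjusted p = 0.383). The log2 ratio of Soat1 to Nceh1 counts averaged 3.12 ± 0.05 (SD, n = 3) on the BCAA-free diet and 2.88 ± 0.20 (SD, n = 5) on the standard diet. The groups overlapped (difference 0.25, two-sided exact permutation p = 0.143, also 0.143 after adjustment over the 3 ratios).

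**Figure D4:**
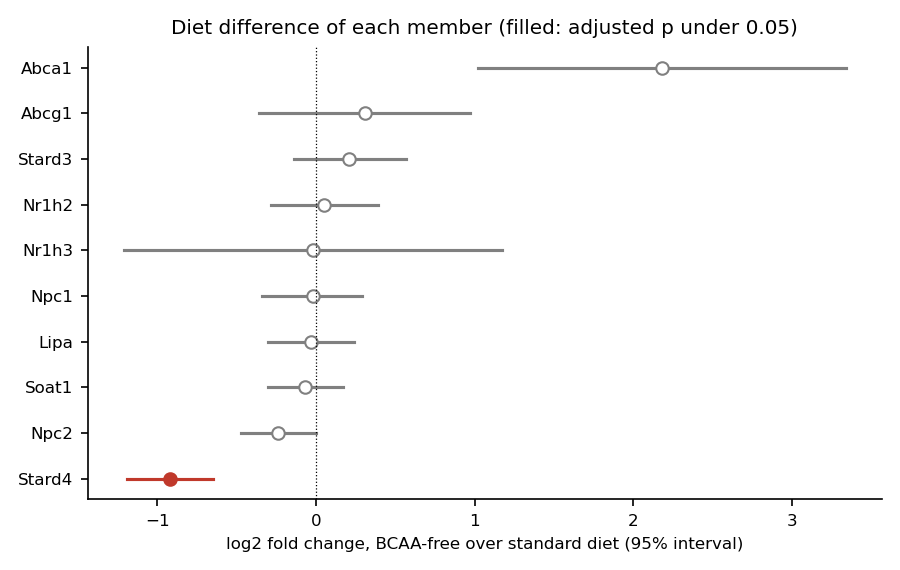
Log2 fold change, BCAA-free over standard diet, of each member (horizontal axis) with its unadjusted 95% interval, ordered by size; the filled point had an edgeR adjusted p under 0.05. Stard4 at -0.92 is the 1 filled point, Abca1 at 2.18 has the widest interval after Nr1h3, and the 95% intervals of the other members include 0 or, for Npc2, end next to it.

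Levels of the members can be compared with each other only per length, here as mean CPM per kilobase of exon over the 5 standard-diet libraries. Npc2 was highest at 45.0 ± 4.26 (SD, n = 5), followed by Nr1h2 at 18.2 ± 2.79, Soat1 at 17.6 ± 2.18, Lipa at 14.2 ± 1.21 and Stard4 at 10.9 ± 1.08. Below them came Stard3 at 7.80 ± 1.54, Npc1 at 3.82 ± 0.636, Abcg1 at 2.50 ± 0.972, Nr1h3 at 0.546 ± 0.224 and Abca1 at 0.166 ± 0.0798. The standard-diet ranges of neighbours overlapped for Nr1h2 and Soat1, for Stard4 and Stard3, and for Npc1 and Abcg1, and not for the other 6 neighbouring pairs. On the BCAA-free diet Stard4 was at 5.75 ± 0.503 CPM per kilobase (SD, n = 3), below Stard3 at 9.03 ± 1.40, and Abca1 at 0.763 ± 0.718 was above Nr1h3 at 0.539 ± 0.164. The lysosomal, esterifying and LXR-beta genes thus had higher means than both exporters on both diets, by exon lengths from GENCODE that need not be those of the authors' annotation.

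Variation within a diet also set the members apart. Over the standard-diet libraries the coefficient of variation was 8.51% for Lipa, 9.48% for Npc2, 9.91% for Stard4 and 12.4% for Soat1. It was 38.8% for Abcg1, 40.9% for Nr1h3 and 48.0% for Abca1. These 3 also had the largest standard errors of the log2 fold change among the members, 0.31 for Abcg1, 0.56 for Nr1h3 and 0.54 for Abca1. Abca1 (11 to 302 reads per library over both diets) and Nr1h3 (17 to 44) had the fewest reads of the members. The part of counting noise in their variation was not tested.

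Other genes of the pathway were described by lists made for their function. Of 89 genes in 8 lists, 72 were tested, of which 2 fell and none rose in edgeR. Over all tested genes 0.539% were called lower and 0.217% higher. At an unadjusted p under 0.05 there were 7 lower and 7 higher, against 13.5% of all tested genes in both directions together. The median log2 fold change of the 72 was 0.06, beside 0.02 for all tested genes. Of the 13 tested LXR target genes 2 fell and none rose, while 8 had a positive log2 fold change, and the list's median was 0.09. At an unadjusted p under 0.05 this list had 2 lower and 3 higher. Scd2, a stearoyl-CoA desaturase that SREBP factors are also known to induce, had 174 ± 19.6 CPM (SD, n = 3) on the BCAA-free diet and 356 ± 48.7 CPM (SD, n = 5) on the standard diet (log2 fold change -1.04, edgeR adjusted p = 0.00252). Smpdl3a, a secreted phosphodiesterase, had 75.2 ± 10.9 CPM (SD, n = 3) on the BCAA-free diet and 109 ± 7.97 CPM (SD, n = 5) on the standard diet (log2 fold change -0.53, edgeR adjusted p = 0.0450). When single libraries were left out in turn its call held once, without BCAA-free replicate 3 (adjusted p = 0.0154), and was lost in the other 7 fits (adjusted p up to 0.197).

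Other LXR targets stood on both sides. Mylip, a ubiquitin ligase, had 14.6 ± 3.72 CPM (SD, n = 3) on the BCAA-free diet and 14.1 ± 1.79 CPM (SD, n = 5) on the standard diet (edgeR adjusted p = 0.942). Srebf1, whose product drives fatty acid synthesis, had 48.2 ± 4.82 CPM (SD, n = 3) on the BCAA-free diet and 55.6 ± 8.63 CPM (SD, n = 5) on the standard diet (edgeR adjusted p = 0.544). Scd1, the related desaturase, had 13.3, 45.6 and 6.97 CPM in the BCAA-free libraries and 2.58 to 7.68 CPM in the standard-diet libraries (edgeR adjusted p = 0.155). Its highest library, BCAA-free replicate 2, was also that of Abca1. Lpl, the lipoprotein lipase, had 12.1 ± 7.15 CPM (SD, n = 3) on the BCAA-free diet and 5.89 ± 1.89 CPM (SD, n = 5) on the standard diet (log2 fold change 1.03, unadjusted p = 0.0118, edgeR adjusted p = 0.228). Apoe, the apolipoprotein of macrophages and liver, had 21.9 ± 5.34 CPM (SD, n = 3) on the BCAA-free diet and 15.7 ± 2.19 CPM (SD, n = 5) on the standard diet (log2 fold change 0.48, unadjusted p = 0.0216, edgeR adjusted p = 0.288). Mylip, Srebf1, Scd1, Lpl and Apoe were picked after their values were seen.

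**Figure D5:**
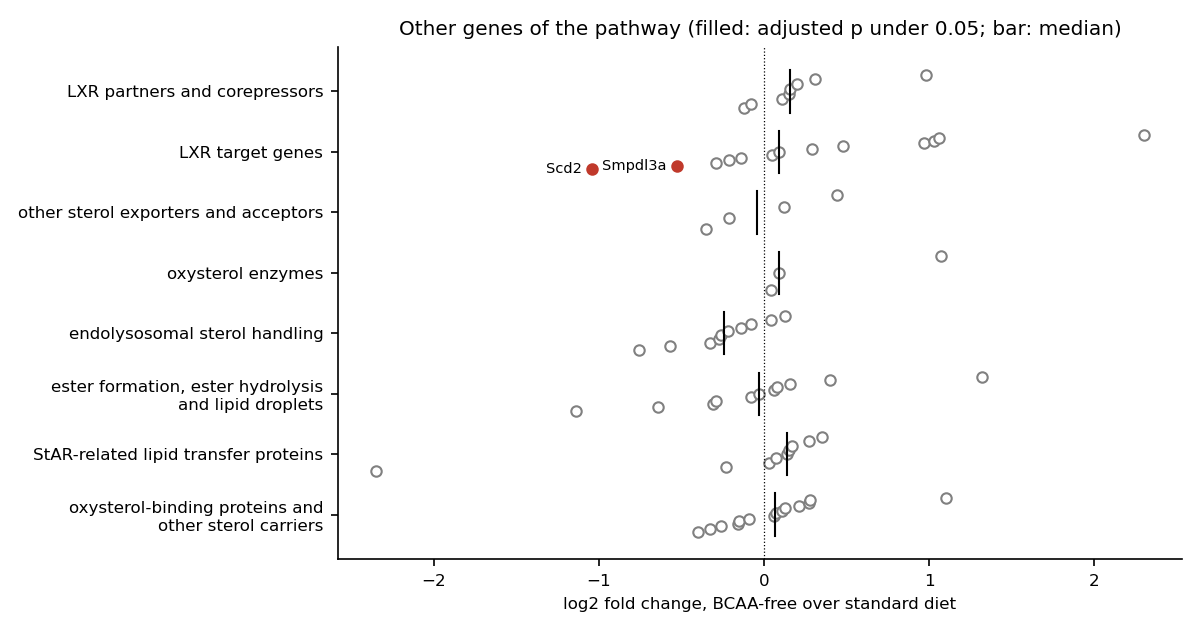
Log2 fold change, BCAA-free over standard diet (horizontal axis), of the 72 tested genes in 8 lists of the pathway (1 row a list); filled points had an edgeR adjusted p under 0.05 and vertical bars are list medians. The filled points are Scd2 at -1.04 and Smpdl3a at -0.53, both among LXR targets, whose other genes reach 2.30.

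No member of the remaining 7 lists passed in edgeR. The counts at an unadjusted p under 0.05 follow, where the share of all tested genes was 13.5%. Among LXR partners and corepressors (8 tested, median 0.16) there was 1. Among 4 other exporters and acceptors (median -0.04) there was none, the smallest p being that of Scarb1, the receptor for high-density lipoprotein (log2 fold change -0.21, adjusted p = 0.496). Among 3 oxysterol enzymes (median 0.09) there was 1, Cyp27a1, the sterol 27-hydroxylase, at 6.37 ± 1.71 CPM (SD, n = 3) on the BCAA-free diet and 3.02 ± 0.985 CPM (SD, n = 5) on the standard diet (adjusted p = 0.179). Ch25h, which makes the LXR ligand 25-hydroxycholesterol, had a count of 0 in all 8 libraries.

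Among 10 genes of endolysosomal sterol handling (median -0.24) 8 had a negative log2 fold change, and 1, Vps4b, an ATPase of the sorting machinery, had an unadjusted p under 0.05 (log2 fold change -0.26, adjusted p = 0.274). Among 11 genes of ester and lipid droplet metabolism (median -0.03) there were 4. Ces1d, a carboxylesterase, had the smallest p, at 7.90 ± 2.50 CPM (SD, n = 3) on the BCAA-free diet and 17.5 ± 6.18 CPM (SD, n = 5) on the standard diet (log2 fold change -1.14, edgeR adjusted p = 0.0861). Among 9 StAR-related proteins (median 0.14) there was 1, Stard6, under 1.3 CPM in every library (adjusted p = 0.332). Among 14 oxysterol-binding proteins and other carriers (median 0.06) there was 1, Osbpl8, a lipid exchanger of membrane contacts (log2 fold change -0.40, adjusted p = 0.197).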

How the data were processed

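Polyadenylated RNA of sorted leukaemia cells was sequenced as pairs of 38 bases, per the labels' protocols. The deposited table holds raw counts per Entrez gene and library. Per the submitters' processing notes the build was mm10 and the tools were featureCounts and Cell Ranger. The sources used here give no version, aligner or strand setting. Symbols came from RefSeq (GRCm38.p6) and matched 25275 of 27179 identifiers; the rest held 1.71% to 4.43% of a library's counts. Mapping choices could shift counts of overlapping genes.

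The main test was edgeR 4.0.16 (R 4.3.3), quasi-likelihood F test with robust dispersion, TMM scaling, a minimum count of 10 and total of 15, a model with diet alone, and Benjamini-Hochberg adjustment across all 13364 tested genes at 0.05. Standard errors were derived from the fold change and its F statistic. CPM use TMM-scaled sizes. Ratios were compared by exact permutation (scipy 1.17.1). Alternatives were DESeq2 1.42.0, limma-voom (limma 3.58.1), other scalings and filters, a non-robust fit, a replicate block and each library left out.

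The members, lists and tests were chosen with earlier results of these data known. All members are named, with every called gene of the other pathway lists, the smallest p of each list without one, and the 5 genes most like Stard4; others are said to be picked later. Some results of this rule, and 1 of the 3 ratios in the adjustment, are not reported here. Stard9 and Hbb-bt were not analysed here. P-values set the diet difference against the spread between these libraries. The injected cells came from 1 mouse, so the p-values do not cover differences between leukaemias.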

Additional observations from a re-analysis of the deposited data

Results flagged for a closer look

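Among 24 values examined over the 5 standard-diet libraries, 3 had 1 library far from the other 4. Chance flags about 1 in 20 such groups. Nr1h3 was at 2.36 CPM in standard-diet replicate 5, and without that library its log2 fold change was 0.26 (edgeR adjusted p = 0.914), after -0.02 with all. Soat1 was at 210 CPM in standard-diet replicate 3, and without it the log2 fold change was 0.02 (edgeR adjusted p = 0.971), after -0.07. Scd2 was at 271 CPM in standard-diet replicate 5, the lowest of its diet, and without it the log2 fold change was -1.12 (edgeR adjusted p = 0.000759), after -1.04.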

How the results depend on the processing

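Genes called over the whole table were 101 as reported, 384 by DESeq2, 64 by limma-voom, 237 without a count filter, and 32 to 134 with 1 library left out (32 without BCAA-free replicate 2). Members called were 1 as reported, 2 in DESeq2 and 1 to 2 with 1 library left out, the added one being Abca1, called higher (0 to 1 such calls, 1 in DESeq2). Stard4 was called lower in each of these fits. Leaving out BCAA-free replicate 3 with standard-diet replicate 1, chosen after seeing the data, gave 2 called members, of which 1 was higher. Pathway genes called were 2 as reported, 4 in DESeq2, 1 in limma-voom, 1 with upper-quartile scaling, 1 with library totals alone and 1 to 4 with 1 library left out. Same-numbered libraries did not deviate together (correlations -0.30 to -0.05 over 3 pairs). With the replicate block on replicates 1 to 3, edgeR called 0 genes, 0 members and 0 pathway genes, where 904, 2 and 9 had an unadjusted p under 0.05, and Stard4 was at -0.92 (adjusted p = 0.143). The same 6 libraries without the block, an alternative added after seeing the data, gave 19 genes, with 1 pathway gene and 1 member, Stard4 (-0.92, adjusted p = 0.0251). The call of Smpdl3a was also lost in limma-voom, in the non-robust fit, with upper-quartile scaling or totals alone, and on those 6 libraries. The split of members into 4 positive and 6 negative values became 7 and 3 with totals alone or upper-quartile scaling, those of Nr1h3, Npc1 and Lipa changing sign within 0.03 of 0. The cause of these differences was not tested. Abca1 and Nr1h3 had no value under the strict filter. With 1 library left out the ratio tests cannot go below 0.0571 or 0.0952, and the differences ranged from 0.21 to 0.32 for Soat1 to Nceh1 and -1.34 to -1.01 for Stard4 to Stard3.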

Other observations

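Lipid droplet genes had values on both sides of 0. Plin2, which coats droplets that hold sterol esters, was at 120, 130 and 161 CPM in the BCAA-free libraries and 93.6 to 113 CPM in the standard-diet libraries, with no overlap (log2 fold change 0.40, edgeR adjusted p = 0.123). Acsl3, an acyl-CoA synthetase of droplets, was at 27.8, 12.6 and 15.4 CPM in the BCAA-free libraries and 24.97 to 31.9 CPM in the standard-diet libraries (log2 fold change -0.64, edgeR adjusted p = 0.201). Soat2, the second esterifying enzyme, was at 2.21, 4.39 and 6.27 CPM in the BCAA-free libraries and 0.120 to 2.93 CPM in the standard-diet libraries (edgeR adjusted p = 0.341). These 3 genes were picked after their values were seen.

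The genes whose pattern over the 8 libraries was most like that of Abca1, sought after its values were seen, were the lymphoid factor Ikzf3, Scd1, the neutrophil gene Retnlg, the MHC class II gene H2-Aa and Chd3. Their mean differences from Abca1 in centred log2 CPM were 0.398, 0.433, 0.433, 0.460 and 0.485, wider than any of those given for Stard4. None of the 5 passed in edgeR (adjusted p 0.152 to 0.300), and 3 of them, Ikzf3, Retnlg and H2-Aa, are known from lymphoid cells, neutrophils and antigen-presenting cells.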
